A study of Mus musculus with 6 samples.

Results

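The Zfp genes encode zinc finger proteins of the mouse, most of them with tandem C2H2 fingers that read DNA. They were followed here in embryonic dorsal telencephalon, from which the cerebral cortex forms, with and without the histone methyltransferase ESET. ESET is the product of Setdb1. A gene was taken when its symbol in the platform annotation starts with Zfp and a digit, it has a probe set (a group of short probes read as 1 value) given to it alone, and its brightest probe set had a mean intensity of 100 or more over all 6 arrays. This gave 292 of the 336 Zfp genes and of the 18193 genes in the gene table. The genes were thus chosen by their measured intensity over all arrays of both genotypes, and not by the difference between genotypes. Just inside the limit lay Zfp773 at a mean of 102, Zfp418 at 103 and Zfp652os at 105, and just outside it Zfp551 at 99.9, Zfp119a at 97.4 and Zfp772 at 96.6. Of the 292, only Zfp429 had a WT mean below 100, and Zfp418, Zfp773 and Zfp652os had such a cKO mean, so almost every gene would have entered through either group alone. Without detection calls, an intensity above the limit does not by itself show that a transcript is present. RefSeq classes 288 of the 292 as protein coding, Zfp783 and Zfp652os as long noncoding RNAs, and Zfp133-ps and Zfp862-ps as transcribed pseudogenes.

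The 6 single-colour arrays, 3 wild type (WT) and 3 conditional knockout (cKO), hold RNA from E14.5 embryos labelled male on a C57BL\6 background. The cKO embryos lost Setdb1 through Emx2Cre, a Cre recombinase under the control of Emx2, a gene of dorsal forebrain progenitors, so cells of the dissected tissue without Emx2 activity can keep the gene. Whether WT embryos carried Cre is not given in the labels, so effects of Cre itself and of the lost gene cannot be told apart. The design text gives 3 embryos of each genotype. Setdb1 itself read 1162, 1185 and 1033 in WT and 704, 695.5 and 499.9 in cKO, lower on every cKO array but not absent, at a log2 fold change of -0.83 (SE 0.17, limma adjusted p = 0.137). Whether its probes lie in the deleted part is not given in the sources used here.

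Many zinc finger proteins carry a KRAB domain, which binds the corepressor TRIM28. TRIM28 in turn brings ESET to the bound site, where histone H3 is methylated at lysine 9 and chromatin is silenced. These proteins are best known for holding down retroelements and for keeping methylation at imprinted genes. Their genes often lie side by side in the genome, as copies of one another, and clusters of such genes can themselves carry the mark that ESET lays. In bulk tissue, fewer cells that make a transcript and less transcript per cell cannot be told apart.

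Both arrays numbered 3 stood apart before any Zfp gene was considered. WT 3 is labelled male, but its Xist intensity was 17294 against at most 59.0 on the other WT arrays, and its Kdm5d, a Y-linked gene, read 10.2 against at least 915. cKO 3 carried both signals, at 8811 and 663. The summed intensity of 9 measured erythroid markers was 69472 on WT 3 and 74087 on cKO 3, against 11322 to 17289 on the other arrays. The summed level of 10 meninges and mesenchyme markers was 2443 on cKO 3 and at most 902 elsewhere, that of 10 muscle markers 1392 against at most 798, and that of 10 ventral telencephalon markers 4879 on WT 3 and from 3413 to 4598 elsewhere. Of 12 endothelium and pericyte markers, the sum ran from 3329 to 3736 in WT and from 2471 to 2646 in cKO, and of 8 microglia markers from 1258 to 1517 and from 956 to 1382. The 9 measured markers of the dorsal telencephalon summed to between 45386 and 55019 on every array. Neurod6 alone had a mean of 18180 over the 6 arrays, so this sum leans on bright genes and does not show the share of dorsal cells. At an unadjusted p below 0.05 in limma, 2 of the 9 dorsal markers, 6 of 12 endothelium and pericyte markers and 0 of 8 microglia markers were lower in cKO. Higher at that p were 2 of 10 ventral telencephalon markers and 1 of 9 erythroid markers. Of all genes, 4.39% were lower and 5.17% higher at that p. The 2 dorsal markers were Emx2, the gene that controls the Cre, and Eomes. Emx2 had means of 1241 in WT and 688 in cKO, at -0.83 (SE 0.14, limma adjusted p = 0.0714), and Eomes was at -0.63 (SE 0.13). Why Emx2 was lower was not tested. The part of all these marker differences in the results on Zfp genes was not tested. Counts and medians are given with and without the arrays numbered 3.

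Taken over all 292 genes, the Zfp genes moved little. Only Zfp991 passed an adjusted p of 0.05 upward in limma's model over all genes, where 0.385% of all genes did, and 0 passed downward, where 0.242% did. At an unadjusted p below 0.05, 12 were higher in cKO, or 4.11%, against 5.17% of all genes, and 2 were lower, or 0.685%, against 4.39%, with 9.56% of all genes past it in either direction. Every cKO array lay above every WT array for 29 genes, with 7.9% of all genes doing so, and below for 13, with 7.64% doing so. The median log2 fold change, cKO minus WT on log2(intensity + 16), was 0.04, with the middle of the genes between -0.11 and 0.17. The median was 0.01 over all genes and -0.01 over the 10795 genes of intensity 100 or more. As deposited, 169 of the 292 genes, or 57.9%, were higher in cKO, against 47.3% of all genes of intensity 100 or more. Centring each array on its median moves every gene down by the same 0.05, so that 139 Zfp genes, or 47.6%, and 36.2% of the other set lay above 0. After quantile normalization these were 159 genes, or 54.5%, and 45.8%. The Zfp median lay above that of genes of this intensity by 0.05 as deposited and with centring, and by 0.04 with quantile normalization. With that centring, the genes at an unadjusted p below 0.05 split into 8 higher and 3 lower, and those without overlap into 17 and 17. After quantile normalization these splits were 11 and 4, and 27 and 12. The background moved as well, with 51.2% of all genes above 0 as deposited, 42.3% with centring and 47.8% with quantile normalization. The matching splits of all genes are not given beside these counts, which therefore describe the Zfp genes alone.

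The small size of the differences can be stated as intervals. For 270 of the 292 genes, or 92.5%, the 95% interval of the log2 fold change lay between -1 and 1, as it did for 91.3% of all genes of intensity 100 or more. For 124 genes, or 42.5%, it lay between -0.5 and 0.5, against 45.7%. Beyond 0.5 in either direction lay 11 Zfp genes, 9 higher and 2 lower, or 3.77% against 6.46%. The intervals of the other 168 genes reach past 0.5 in at least some direction. Those of Zfp991 and Zfp110 lay wholly above 0.5, with lower ends at 1.55 and 0.73. For the rest of the 168, 3 arrays a group do not settle whether they differ by that much.

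**Figure D1:**
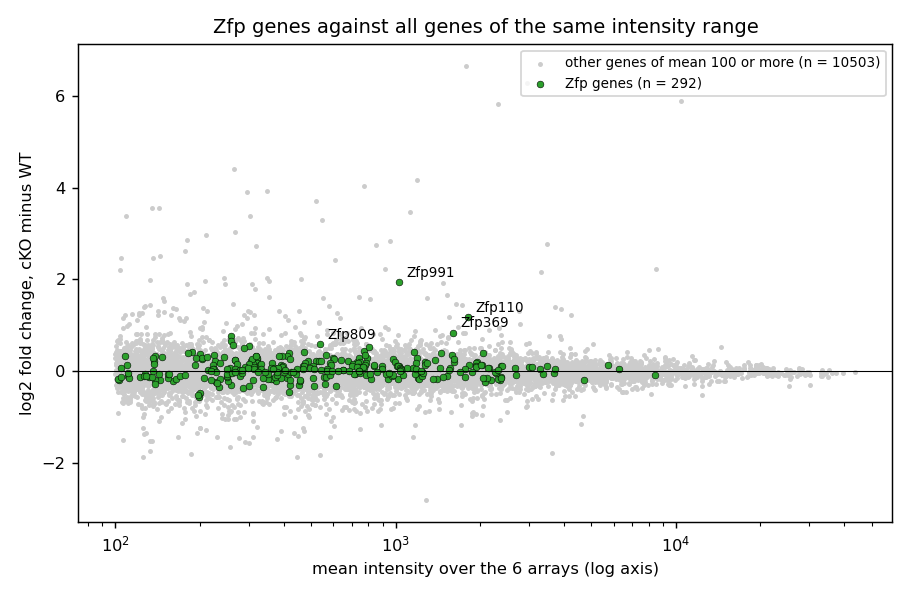
Log2 fold change, cKO minus WT, against mean intensity over the 6 arrays on a log axis, for 292 Zfp genes (green) and 10503 other genes of mean 100 or more (grey). Zfp991, at 1.93, and Zfp110, at 1.17, stand above the band that holds the other Zfp genes.

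Zfp991 rose to 3.89 times its WT level. It is named Gm13139 in older annotation, and its product has no role named here. Its brightest probe set read 507 on WT 1, 358 on WT 2 and 395 on WT 3, and 1627, 1678 and 1596 on cKO 1, 2 and 3. The lowest cKO array was therefore far above the highest WT array, and the cKO arrays lay closer together than the WT arrays. The means were 419.9 ± 78.0 (SD, n = 3) and 1633 ± 41.5, and the log2 fold change was 1.93 (SE 0.16, limma adjusted p = 0.00775). A dimmer probe set read 55.3, 44.8 and 76.5 in WT and 231, 197 and 283 in cKO, with a log2 fold change of 1.77 (SE 0.22, limma adjusted p = 0.0474 over all probe sets). The remaining probe set read 30.4 ± 12.8 in WT and 26.6 ± 20.8 in cKO, with groups that overlapped. Averaged over the 3 probe sets, Zfp991 was at 1.15 and did not pass (adjusted p = 0.108). Without both arrays numbered 3 the log2 fold change was 1.92, and the call was lost (adjusted p = 0.158). It was also lost without cKO 1 (1.94, adjusted p = 0.0595) and without cKO 2 (1.92, adjusted p = 0.0630).

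Zfp991 lies within a dense group of zinc finger genes, few of which were measured. Within 5 protein-coding genes on each side, 3 neighbours are in the gene table, all dim, and 0 of them passed in limma, with 1 higher at an unadjusted p below 0.05 (Zfp982). A wider window was then taken after these values were seen. Among 45 annotated genes on each side in the RefSeq table of GRCm38.p6, that table lists 14 with Zfp symbols, counting Zfp991, of which 3 are in the gene table used here. The other measured genes number 22, of which 2 rose past an adjusted p of 0.05 and 0 fell, against 0.385% and 0.242% of all genes. At an unadjusted p below 0.05 limma gave 3 higher and 0 lower, against 5.17% and 4.39% of all genes. RefSeq classes both genes that rose as transcribed pseudogenes. They were picked out after their values were seen, and lie 39 and 38 genes away from Zfp991, near the edge of the window. Znf41-ps went from 155, 132 and 115 in WT to 624, 627 and 467 in cKO, at 1.97 on the log2 scale (SE 0.18, adjusted p = 0.0101). Gm13238, which directly follows it, went from a WT mean of 210.3 to a cKO mean of 1491, at 2.74 (SE 0.17, adjusted p = 0.00227). Without both arrays numbered 3 they were at 2.01 (adjusted p = 0.118) and 2.82 (adjusted p = 0.123). The Zfp neighbours that were measured fell below the intensity limit. Zfp982 read 9.50, 17.5 and 26.3 in WT and 54.1, 63.5 and 35.2 in cKO, which do not overlap, at 0.99 (SE 0.25, adjusted p = 0.217). Zfp979 was at 0.58 (SE 0.29) with overlapping groups. Farther along, the measured genes from Miip to Disp3 ranged from -0.30 to 0.64 and 0 of them passed. Whether the probes of Zfp991 also read transcripts of its near copies, most of which are not in the gene table, was not tested.

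**Figure D2:**
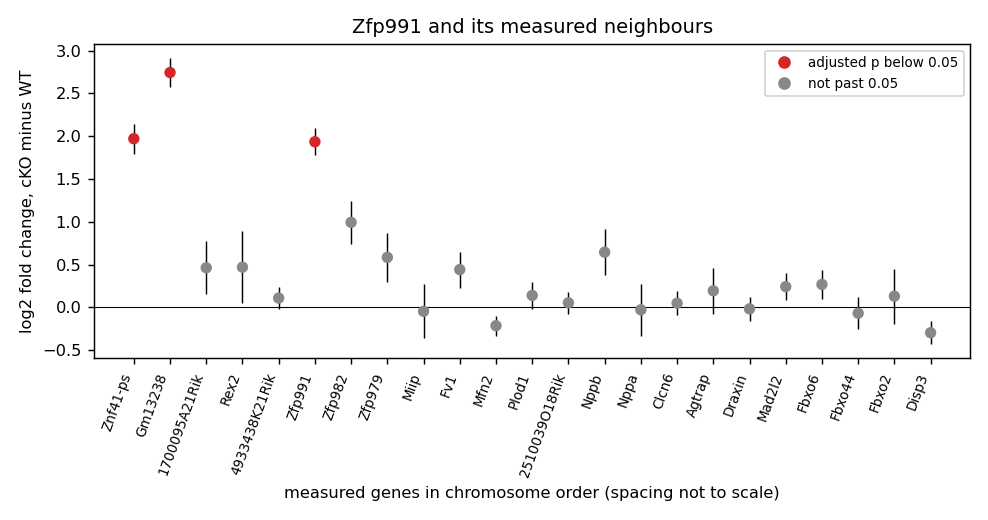
Log2 fold change, cKO minus WT, with its standard error, of Zfp991 and 22 measured genes around it, in chromosome order and not to scale. Znf41-ps, Gm13238 and Zfp991 (red, adjusted p below 0.05) stand at 1.93 or higher, and the genes to the right of Zfp979 scatter around 0.

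Zfp110 and Zfp369 came next in size. They are a related pair, listed in RefSeq also as Nrif1 and NRIF2, after the binding of the first to the neurotrophin receptor p75. They lie on different chromosomes. Zfp110 read 1163, 1223 and 945 in WT and 2971, 2499 and 2101 in cKO. No cKO array came down to the WT range, although the cKO arrays spread widely. The log2 fold change was 1.17 (SE 0.18), and the limma adjusted p of 0.0617 missed the threshold. Both further probe sets of Zfp110 gave similar values, 1.08 (SE 0.13, adjusted p = 0.0486 over all probe sets) and 1.10 (SE 0.19, adjusted p = 0.120). Across 17 alternative fits its log2 fold change ran from 1.04 to 1.29, and it passed in 5 of them, with adjusted p from 0.00530 to 0.205. Zfp369 read 1314, 1149.5 and 969.5 in WT and 2489, 1890.2 and 1812 in cKO. Its groups did not overlap, and it was at 0.84 (SE 0.18, adjusted p = 0.162). It passed in 2 of the 17 alternatives. Array 3 was the lowest of its group for both genes. Without both arrays numbered 3, Zfp110 was at 1.18 (adjusted p = 0.192) and Zfp369 at 0.81 (adjusted p = 0.343).

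The measured neighbours of Zfp110 stayed near 0. The 6 neighbours within 5 protein-coding genes on each side ranged from -0.19 to 0.16, with 0 at an unadjusted p below 0.05 in limma, the next Zfp genes being Zfp329 at 0.14 (SE 0.12) and Zfp128 at 0.16 (SE 0.14). Zfp369 had 2 measured neighbours, Mfsd14b at 0.39 (SE 0.16) and Nlrp4f at -0.16 (SE 0.33). Whether these differ from the neighbours of Zfp991 was not tested.

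**Figure D3:**
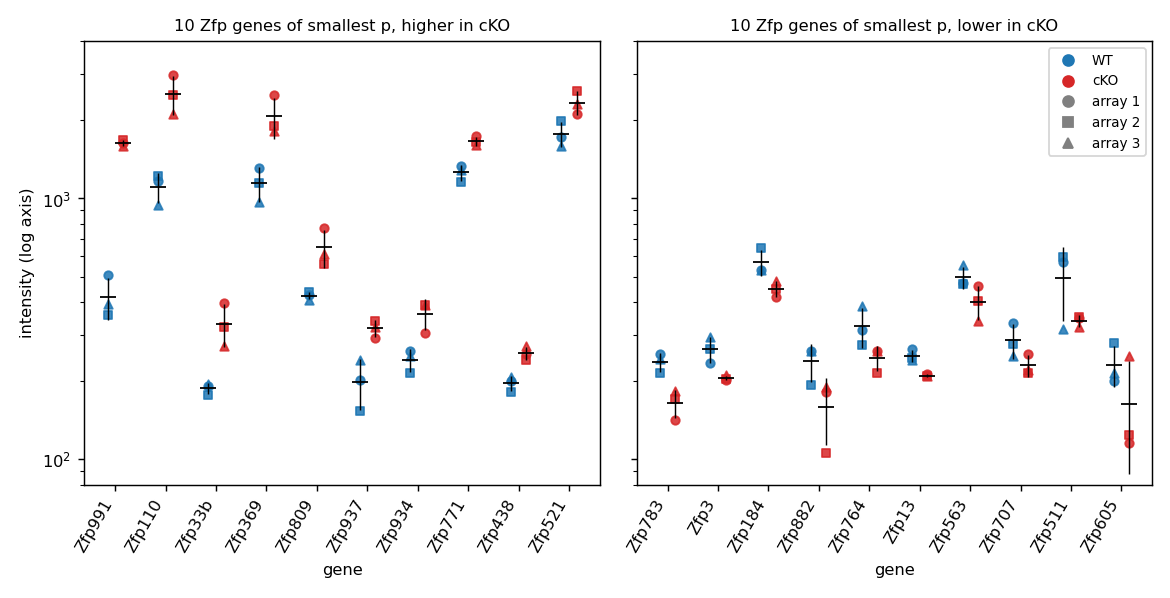
Intensity on each array, on a log axis, of the 10 Zfp genes of smallest p among those higher in cKO (left) and the 10 among those lower (right), with WT in blue, cKO in red, a symbol for each array number, and bars for mean and SD (n = 3). In the left panel the groups of all 10 genes are apart, and in the right panel those of Zfp707, Zfp511 and Zfp605 overlap.

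The promoters of 3 genes of this upper group are shown, as these genes have an entry in the RefSeq promoter table. The 3 genes did not pass the adjusted threshold, and whether they share any control was not tested. They are Zfp110, Zfp33b and Zfp809, the members of smallest p that the table holds. Each runs from 250 bases before the start of transcription to 50 after it, on the plus strand of GRCm38.p6, at chr7:12834511-12834810 for Zfp110, chr5:104571422-104571721 for Zfp33b and chr9:22225453-22225752 for Zfp809. Capitals mark matches, on either strand, to the 8 motifs searched.

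Zfp110: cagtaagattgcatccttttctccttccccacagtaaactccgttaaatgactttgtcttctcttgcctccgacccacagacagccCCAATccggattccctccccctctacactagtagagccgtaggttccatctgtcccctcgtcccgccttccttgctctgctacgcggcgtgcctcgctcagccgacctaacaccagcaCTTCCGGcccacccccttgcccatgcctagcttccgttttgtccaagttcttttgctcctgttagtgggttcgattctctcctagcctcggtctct

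Zfp33b: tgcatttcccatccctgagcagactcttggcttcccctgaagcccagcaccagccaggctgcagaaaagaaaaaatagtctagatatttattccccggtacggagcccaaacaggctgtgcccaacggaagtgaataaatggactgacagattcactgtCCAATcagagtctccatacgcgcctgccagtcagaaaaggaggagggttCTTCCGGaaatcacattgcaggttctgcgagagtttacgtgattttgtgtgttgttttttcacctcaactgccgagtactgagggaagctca

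Zfp809: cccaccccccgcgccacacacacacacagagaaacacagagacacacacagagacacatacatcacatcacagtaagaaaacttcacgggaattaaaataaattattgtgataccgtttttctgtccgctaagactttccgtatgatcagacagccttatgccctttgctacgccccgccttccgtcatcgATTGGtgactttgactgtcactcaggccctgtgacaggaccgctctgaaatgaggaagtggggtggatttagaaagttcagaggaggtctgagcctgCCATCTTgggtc

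The 3 promoters each hold 1 CCAAT box (CCAAT) and no GC box (GGGCGG). The ETS motif (CCGGAAG) occurs once in Zfp110 and once in Zfp33b, on the minus strand, and the YY1 motif (AAGATGG) once in Zfp809, after the start. The letters searched for the E-box (CACGTG) are not in these windows. Nor are those for ZNF143 (ACTACAA), for the TATA box (TATAAA), or the palindrome bound by NRF1. The motifs do not overlap one another here. Promoters on chr18 were left out, and 1 promoter was kept for each gene symbol. A promoter then remained for 239 of the 292 Zfp genes. Among them, 46.4% held a CCAAT box, against 37.9% of the 27025 promoters kept. The share was 39.4% for those of measured genes at or above the intensity limit. For the GC box the shares were 48.1%, 35.9% and 67.4%, for ETS 21.8%, 9.12% and 19.5%, for YY1 8.79%, 6.48% and 7.63%, for ZNF143 7.11%, 3.45% and 4.55%, for NRF1 4.18%, 0.977% and 2.29%, for the E-box 7.11%, 7.24% and 10.5%, and for the TATA box 6.69%, 14.2% and 6.31%. The Zfp promoters were intermediate in composition. Their median GC content was 55.7%, against 52.7% for all promoters kept and 61.7% for genes at or above the limit. Their median ratio of observed to expected CpG was 0.68, against 0.39 and 0.79. Such matches describe the letters and show no binding.

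Repressors of retroelements and imprinted genes form the group closest to the known work of ESET, and 6 of 7 written were measured above the limit. Of these, 0 passed the threshold in limma. At an unadjusted p below 0.05, 1 was higher and 0 were lower, against 5.17% and 4.39% of all genes. That gene was Zfp809, whose product binds the primer binding site of murine leukaemia viruses and silences them. It read 428, 436 and 409 in WT and 771, 563 and 613 in cKO. The WT arrays were nearly equal and all cKO arrays were higher, at 0.58 (SE 0.15, adjusted p = 0.237). Its nearest measured Zfp neighbours were at 0.21 (SE 0.16) for Zfp599 and 0.09 (SE 0.16) for Zfp810. Zfp568, a repressor of a placental promoter of Igf2, read 303, 274 and 296 in WT and 377, 353 and 324 in cKO, also without overlap, at 0.26 (SE 0.12, adjusted p = 0.593). The imprint regulators were not apart, Zfp57 at -0.11 (SE 0.26) and Zfp445 at 0.05 (SE 0.13). Zfp932 and Zfp708, repressors of endogenous retroviruses, were at 0.14 (SE 0.16) and 0.09 (SE 0.18).

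Further genes higher in cKO did not pass the threshold. Zfp33b read 191, 177 and 194 in WT and 397, 323 and 273 in cKO, which do not overlap, at 0.76 (SE 0.16, adjusted p = 0.154). Zfp937 read 202, 153 and 239.9 in WT and 293, 339.8 and 320.5 in cKO, at 0.66 (SE 0.18, adjusted p = 0.268). Zfp934 and Zfp935 are direct neighbours. Zfp934 read 259, 214 and 248 in WT and 304, 390.2 and 391 in cKO, at 0.55 (SE 0.15, adjusted p = 0.270). Zfp935 read 240.1, 154 and 236 in WT and 257, 329.9 and 365 in cKO, at 0.57 (SE 0.22, adjusted p = 0.463). Genes beside this pair, named after their values were seen, lay at similar sizes, with 0.47 (SE 0.21) for 6720489N17Rik, 0.53 (SE 0.19) for Gm5141 and 0.89 (SE 0.32) for Gm3604, where Gm3604 had a WT mean of 17.5. The next genes, Fbp2 and Fbp1, were at -0.13 and -0.24. The probe sets used for Zfp935, 6720489N17Rik and Gm5141 have names ending in _x_at, which marks probes that may read related transcripts, so these values may not be separate measurements.

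The other genes of the upper 10 were brighter or steadier and changed by less. Zfp521, which promotes the early step from stem cell to neural progenitor, read 1720.5, 1974 and 1593 in WT and 2101, 2590.0 and 2295 in cKO, at 0.40 (SE 0.15, adjusted p = 0.443). A second probe set of Zfp521 was at 0.20 (SE 0.15), also without overlap. Zfp771 read 1328, 1158 and 1288 in WT and 1729.5, 1648 and 1603 in cKO, at 0.40 (SE 0.12, adjusted p = 0.320). The probe set used, 1 of 6, has a name ending in _x_at, and another of intensity 343 was at 0.06 (SE 0.15). Across 17 alternative fits, which include other choices of probe set, Zfp771 ran from 0.30 to 1.10 and passed in 0. Zfp438 was at 0.36 (SE 0.12, adjusted p = 0.396). Outside the 10 and chosen after its values were seen, Zfp111 showed how tight some genes were, with 182, 183 and 184 in WT and 224, 228 and 220.4 in cKO, at 0.27 (SE 0.11, adjusted p = 0.495).

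As deposited, genes lower in cKO were fewer and their differences smaller, and none passed the threshold. That they were fewer depended on the scaling, as 169 of the 292 genes were higher as deposited and 139 with centring. Zfp783, a long noncoding RNA in RefSeq, read 253, 214 and 242 in WT and 142, 169.9 and 182 in cKO, at -0.49 (SE 0.14, adjusted p = 0.302). The groups do not overlap, but its other probe set, of intensity 79.7, was at 0.25 (SE 0.30). Zfp3 read 234, 265 and 295 in WT and 201, 204 and 209.8 in cKO, at -0.34 (SE 0.13, adjusted p = 0.464), and its other, dim probe set was at 0.32 (SE 0.28). Among the remaining genes of the lower 10, Zfp184, Zfp882, Zfp764, Zfp13 and Zfp563 did not overlap and ranged from -0.56 for Zfp882 to -0.24 for Zfp13. Zfp707, Zfp511 and Zfp605 overlapped. The large value of Zfp511, -0.47 (SE 0.25), came from WT 1 and WT 2, at 573 and 595, while WT 3, at 316, lay just below the cKO arrays, which ran from 321 to 353.

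The Zfp genes with known roles in neural development showed no shared direction. Of 16 written, 13 were measured above the limit. In limma 0 passed. At an unadjusted p below 0.05 Zfp521 was the 1 gene higher and 0 were lower, against 5.17% and 4.39% of all genes. The median of the 13 was -0.09, and 5 of 13 were higher. Zfp462, a large nuclear protein and the brightest Zfp probe set, ran from 8135 to 9154 in WT and from 6588 to 9098 in cKO, at -0.09 (SE 0.17). Zfp335, which neural progenitors need to divide, was at -0.20 (SE 0.16), and Zfp423, a factor of midline and cerebellar development, at -0.09 (SE 0.26). Zfp503, a factor of striatal neurons, read 50.2 and 89.1 on WT 1 and WT 2 but 289 on WT 3, and 61.6 and 85.9 on cKO 1 and cKO 2 but 199 on cKO 3. It was thus high on both arrays numbered 3, and the genotypes overlapped, at -0.11 (SE 0.63). Its paralogue Zfp703 was also highest on both arrays numbered 3, at 967 and 723 against 425 to 691.

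Genes for RNA-binding zinc finger proteins gave no call. Of 13 written, 8 were measured above the limit. In limma 0 passed and 0 reached an unadjusted p below 0.05, where 9.56% of all genes did. The median was 0.09, with 7 of 8 higher, where 47.3% of all genes of intensity 100 or more were. The intervals of 4 of 8 lay within -0.5 and 0.5. This group includes proteins with CCCH fingers that bind RNA instead of DNA. Of these, Zfp36l1, which speeds the decay of AU-rich messenger RNAs, read 2186 and 1735 on WT 1 and WT 2 and 3923 on WT 3, and 1989, 2175 and 4023 in cKO, at 0.07 (SE 0.39). Zfp36l2 was at 0.21 (SE 0.18) and Zfp36 at -0.11 (SE 0.21). Zfp346, which binds double-stranded RNA, was at 0.18 (SE 0.15), and Zfp598, which marks collided ribosomes, at 0.09 (SE 0.15).

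Among 15 genes written for general transcription, chromatin and protein modification, 14 were measured above the limit. In limma 0 passed and 0 reached an unadjusted p below 0.05, where 9.56% of all genes did. The median was 0.10, with 11 of 14 higher. Only Zfp91 and Zfp64 had groups that do not overlap, as 15.5% of all genes had. Zfp91, a ubiquitin ligase, read from 2474 to 2594 in WT and from 2159 to 2269 in cKO, at -0.19 (SE 0.11). Zfp64 read from 652 to 717 and from 760 to 814, at 0.19 (SE 0.11). Zfp207, a spindle assembly factor, was at -0.20 (SE 0.12), Zfp410, an activator of the chromatin remodeller gene Chd4, at 0.11 (SE 0.13), and Zfp644, a partner of the G9a and GLP methyltransferases, at 0.20 (SE 0.18). For these 3 lists the intervals of 7 of 8 RNA-binding genes, 14 of 14 general genes and 11 of 13 neural genes lay within -1 and 1. The other bright probe sets, of Zfp445, Zfp266 and Zfp518b, were at 0.05, 0.13 and 0.03, and no brightness here ranks one transcript against another.

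Zfp genes that lie next to each other did not all move together. Runs were formed from Zfp genes with at most 5 other genes between neighbours, and 16 runs with at least 4 measured members held 127 of the 292 genes. Their medians ranged from -0.16 to 0.26. Of the 16 medians, 11 were above 0, and without both arrays numbered 3 there were 12, between -0.10 and 0.27 in all. Relative to 0, 9 were above after centring, which lowers every gene alike, and 9 after quantile normalization. At the upper end, the run from Zfp607b to Zfp850 had 5 of 6 genes higher with a median of 0.26, and that from Zfp653 to Zfp810, which holds Zfp809, had 4 of 4 higher with a median of 0.20. At the lower end, the run from Zfp628 to Zfp580 had 5 of 6 genes lower with a median of -0.16, and that from Zfp787 to Zfp28 had 5 of 5 lower with a median of -0.06. The biggest run, Zfp160 to Zfp13 with 22 measured genes, had 15 higher and 7 lower, a range from -0.24 to 0.35, and 0 genes at an unadjusted p below 0.05. The run from Zfp712 to Zfp493, with 15 measured genes, had 11 higher and 0 at that p. In limma 0 genes of either run passed the adjusted threshold. Members inside runs had a median of 0.04 and those outside also 0.04. The group around Zfp991 is not among the runs, because too few of its genes were measured above the limit.

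**Figure D4:**
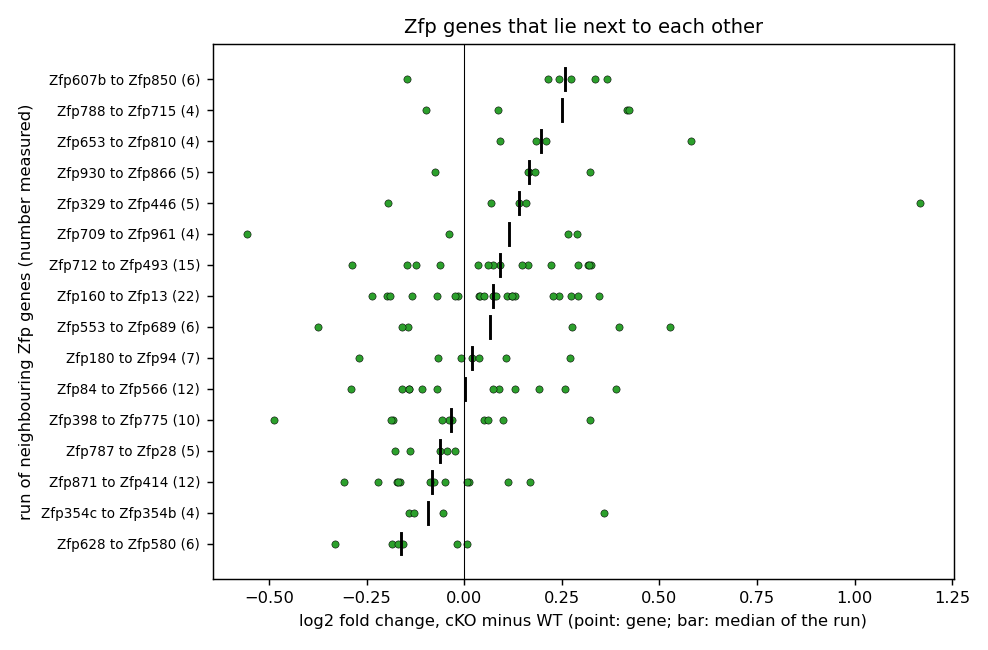
Log2 fold change, cKO minus WT, of the Zfp genes in 16 runs of neighbouring Zfp genes (points), with the median of each run (bar). Medians run from -0.16 to 0.26, and Zfp110, at 1.17, is the single gene beyond 1.

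Below the limit, 44 Zfp genes were measured but are dim, with intensities at which a fold change depends on the pseudocount. In limma 0 of them passed. At an unadjusted p below 0.05, 4 were higher, or 9.09%, and 2 lower, or 4.55%, against 5.17% and 4.39% of all genes. Zfp385a, which encodes an RNA-binding protein, read 69.6, 64.4 and 97.2 in WT and 27.8, 48.4 and 26.8 in cKO, at -0.90 (SE 0.22, adjusted p = 0.208). It was chosen after its values were seen. Zfp819, a repressor of retroelements from the list above, read at most 7.45 in WT and 26.1, 31.2 and 4.95 in cKO.

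Other C2H2 gene families were read at the same intensity limit. Of 50 genes with symbols starting in Zkscan, Zscan, Zbtb or Znf and a digit, 1 passed upward, the pseudogene Znf41-ps described above, and 0 downward. Over all genes, 0.385% passed upward and 0.242% downward. At an unadjusted p below 0.05 limma gave 3 higher, or 6%, and 0 lower, against 5.17% and 4.39% of all genes. The median of the 50 genes was 0.01. Of 33 Zbtb genes, whose products join the fingers to a BTB domain, 0 passed, and their median was 0.02. At that p 2 of the Zbtb genes, or 6.06%, were higher and 0 lower. The difference between these families and the Zfp genes was not tested.

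Among the genes that work with KRAB zinc finger proteins, 27 of 31 written were measured, and 0 passed in limma. At an unadjusted p below 0.05, 1 was higher and 1, Setdb1, was lower, or 3.7% each, against 5.17% and 4.39% of all genes. The median was 0.01. Atf7ip, which stabilises ESET, was the higher gene. It read 2471, 2702 and 2566 in WT and 4412, 3492 and 5467 in cKO, without overlap, at 0.76 (SE 0.18, adjusted p = 0.204). Trim28 read from 7136 to 9156 in WT and from 6764 to 8692 in cKO, at -0.10 (SE 0.17). Morc2a was at 0.29 (SE 0.15) and Dnmt3b at 0.27 (SE 0.16).

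How the arrays numbered 3 bear on the Zfp genes can be read from the genes themselves. Both arrays numbered 3 were above all 4 others for 42 Zfp genes, or 14.4%, and below all 4 others for 63, or 21.6%, against 14.1% and 21.0% of all genes of intensity 100 or more. Zfp503, Zfp626, Zfp800, Zfp458 and Zfp36l1 stood highest there, with ratios of arrays 3 to the others from 1.97 to 3.40. Zfp626 read 74.9 and 54.8 on WT 1 and WT 2 and 239.99 on WT 3, and 62.4, 66.2 and 172 in cKO. They were chosen after their values were seen, and were not apart by genotype. Without both arrays numbered 3, the median of the Zfp genes stayed at 0.04 and 10 genes were higher and 4 lower at an unadjusted p below 0.05, where 5.16% and 4.62% of all genes were. In limma on those 4 arrays, 0 genes of the role lists passed. At an unadjusted p below 0.05, 0 of 13 neural genes, 0 of 8 RNA-binding genes, 1 of 6 repressors and 1 of 14 general genes were higher and 0 of each were lower, with medians of -0.04, 0.09, 0.14 and 0.07. The gene that was higher among the repressors was again Zfp809, at 0.59, while Zfp521, at 0.34, was no longer past that p. The 27 genes that work with KRAB zinc finger proteins had 0 calls, 1 higher and 1 lower at that p and a median of 0.0008, and Setdb1 was at -0.73. The 50 genes of other C2H2 families had 0 calls, 3 higher and 1 lower at that p and a median of 0.04. With those arrays as a block, Zfp110 passed beside Zfp991 (adjusted p = 0.0371), and 23 were higher and 5 lower at that p, where 6.83% and 5.78% of all genes were.

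The reading of a gene often rested on its probe set. Of the 292 genes, 134 had a single probe set. In 109 genes, 162 further probe sets reached the intensity limit, and 109 of these had the same sign as the one used. Of the 6 such probe sets of genes at an unadjusted p below 0.05, 6 had the same sign. The brightest probe sets have names ending in _x_at for 12 genes and in _s_at for 11, which marks probes that may read more than their own transcript.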

How the data were processed

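RNA of 3 WT and 3 cKO dorsal telencephalon samples was hybridised to 6 arrays. The deposited values are linear intensities of 45037 probe sets, made by the authors with the Affymetrix Expression Console per the submitters' processing notes. Its version and summary algorithm were not stated in these sources. The 2% trimmed mean of every array lay between 497.2 and 497.7, which shows a shared scale. The platform annotation gives 1 gene to 34945 probe sets, several to 932 and none to 9160, and only the first were used. Each of 18193 genes was represented by its probe set of highest mean log2(intensity + 16). With array medians less than 0.5 apart, no further normalization was applied. Genotype was the sole term of a linear model, fitted to all genes with limma 3.58.1 in R 4.3.3 (lmFit, eBayes), with Benjamini-Hochberg adjustment over all genes and a threshold of 0.05. Fits were tested on simulated data. Errors are moderated SEs or SDs of 3 arrays, and so few arrays limit the precision. Probe sets were fitted and adjusted in the same way.

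Named genes are those past the threshold, the 10 of smallest p in each direction, the 5 brightest, those at the limit and members of role lists written from general knowledge; neighbours are named by position, and others are said to be chosen after their values were seen. The genes, lists and tests were chosen with earlier results of these data known. All 292 Zfp symbols matched the RefSeq gene table of GRCm38.p6, which was used for gene order and class. Promoters, from RefSeq and the same assembly, were used for 239, with all promoters on chr18 left out. A split of the genes by KRAB domain was planned but protein sequences were not used here. The alternatives were quantile normalization, median centring, a filter on dim genes, pseudocounts of 1 and 64, trend and robust eBayes, other choices of probe set, blocks, left-out arrays and other intensity limits.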

Additional observations from a re-analysis of the deposited data

How the results depend on the processing

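The direction of the 10 genes of smallest p on each side held under all alternatives run, and the median of the Zfp genes stayed between -0.01 and 0.06. The number of Zfp genes passing upward was 4 without genes below the median mean (Zfp991, Zfp110, Zfp369 and Zfp33b), 3 with trend and robust eBayes, 2 with a pseudocount of 64 or with the arrays numbered 3 as a block, and 0 without both arrays numbered 3. Calls over all genes moved too, from 114 to 187, 244, 215, 110 and 8 in these settings. Over fits without 1 array it ran from 0 to 1, and downward it was 0 in every setting run. Higher at an unadjusted p below 0.05 were 20 genes without dim genes (5.53% of all genes there), 19 with a pseudocount of 64 (5.28%), 20 with trend and robust eBayes (5.08%) and 23 with arrays 3 as a block (6.83%), and 9 to 14 without 1 array. Lower at that p were 4 with quantile normalization (5.15%), 4 without dim genes (6.1%), 5 with a pseudocount of 64 (4.81%), 4 without both arrays 3 (4.62%), 5 with arrays 3 as a block (5.78%), and 1 to 4 without 1 array. Groups that do not overlap became 17 upward with centring (5.0% of all genes). Without both arrays 3 they were 74 upward and 34 downward (19.7% of all genes in each direction), as fewer arrays separate more often. Without 1 array they ran from 35 to 54 upward and from 18 to 29 downward, again with fewer arrays. For the fits without 1 array, the shares of all genes are not given here. Of the bright genes near 0, the uniform shift of centring by itself put Zfp445 at -0.0011 and Zfp518b at -0.015. With the mean of probe sets they were at -0.036 and -0.18. Without 1 array Zfp445 ran from -0.019 (WT 3 left out) to 0.11, Zfp518b from -0.0024 (cKO 3 left out) to 0.077, and Zfp462 from -0.17 to 0.065 (cKO 1 left out). The cause of the other changes was not tested.

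The main fit did not pair arrays by replicate number. Deviations from the group means correlated across genes at 0.07 for the arrays numbered 1, 0.17 for numbers 2 and 0.37 for numbers 3. WT 1 correlated better with cKO 2 (0.10) than with cKO 1. WT 2 correlated best with cKO 2, little above cKO 1 (0.15), and WT 3 correlated best with cKO 3. Whether arrays of the same number were processed together was not tested. With the replicate block, 0 Zfp genes passed upward, 18 had an unadjusted p below 0.05 upward and 4 downward (6.71% and 5.37% of all genes), calls over all genes fell from 114 to 17, and Zfp991 had an adjusted p of 0.0702. The planned median of genes with a KRAB domain was not run. On simulated arrays of this size with 18193 genes, 47 of 100 genes changed by 1 on the log2 scale were called, and 92 of 100 changed by 2; smaller changes were not simulated.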
